A study of Mus musculus with 26 samples.

Results

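The immediate early response was followed by its transcription factors through 26 subcutaneous pancreatic tumors of mice, namely Fos, Fosb, Jun, Junb, Egr1, Egr2, Egr3, Nr4a1, Nr4a2 and Nr4a3. They were picked by name, 10 of the 19505 genes measured, and the list was drawn up with the knowledge that Nr4a2 and Egr2 were higher after anti-PD1. The comparisons of anti-PD1-treated with other tumors are therefore described below without a test. The comparison of HMB-fed with other tumors over both treatment arms weighs the control and anti-PD1 tumors alike and was tested. HMB against control and anti-PD1 + HMB against anti-PD1 each reuse a group on whose values the choice rests, so they are given for the members as a description. For each gene the probe set with the highest mean was taken. Egr3 had 3 probe sets and every other member had 1.

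The tumors grew from Panc02, 1 mouse pancreatic ductal adenocarcinoma cell line, injected under the skin of male C57BL/6 mice that were 6 to 8 weeks old at arrival, so they model a transplanted tumor and not tumor development. All mice ate the AIN-93G control diet. There were 6 tumors from control mice, 7 from mice supplemented with HMB (β-hydroxy-β-methylbutyrate, a leucine metabolite) at 1% of the diet from 1 week before the injection, 6 from mice given 200 µg of anti-PD1 every 3 days from 2 weeks after the injection, and 7 from mice given anti-PD1 + HMB. Mice without anti-PD1 received an isotype control antibody. Each tumor was homogenized whole and read on 1 expression array, and the labels do not say more about how the replicates of a group were raised. Group sizes in the series' design text differ from these, which were counted from the sample titles.

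Values are the deposited log-scale array values, taken as log2, and a difference of 1 is then a doubling. Precision is limited by how many arrays there were. The arrays had similar medians, from 6.97 to 7.11. The 95th percentile of 5222 negative-control probe sets lay between 10.9 and 11.3 per array, and a gene above it is called above background here. By this measure Krt8 and Krt18, keratins of epithelial tumor cells, were above background in 26 of 26 tumors, whereas Epcam was in 1 and Cldn4 in 0. Of the macrophage markers 5 of 9 were above background in every tumor, and of the T cell markers 0 of 10 were. RNA came from all cells of the tumor, and a lower value from fewer cells of a type cannot be told apart from less RNA per cell.

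Immediate early genes are transcribed within minutes of a stimulus, before any new protein is made, when kinase and calcium signals reach transcription factors such as SRF and CREB that already sit at their promoters. FOS and JUN family proteins pair to form AP-1, EGR proteins are zinc finger factors that bind GC-rich sites, and NR4A proteins are orphan nuclear receptors that need no known ligand. In T cells, stimulation through the antigen receptor induces all of these families, and NR4A factors and EGR2 are known for their part in tolerance and exhaustion. They are also induced in tumor cells, macrophages and fibroblasts, and by the handling of tissue.

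The promoters of 5 members are shown because the NR4A genes include the member with the widest difference after anti-PD1, and because Fos and Egr2, both above background in 0 tumors, had the highest correlation of any pair of members from tumor to tumor. The sequences are the first 250 bases of a gene's promoter window on GRCm38.p6, and 8 of the 10 members had a window. For Nr4a2 and Fos they lie directly before the gene's start in RefSeq. Those of Nr4a1 and Egr2 lie inside the gene, and that of Nr4a3 lies mostly past its start. Capitals mark TGACG or its reverse complement CGTCA, the core of the cAMP response element bound by CREB, in the NR4A genes and Fos, and the CArG box, the site bound by SRF, in Egr2.
Nr4a2 (chr2:57124004-57124253, minus strand): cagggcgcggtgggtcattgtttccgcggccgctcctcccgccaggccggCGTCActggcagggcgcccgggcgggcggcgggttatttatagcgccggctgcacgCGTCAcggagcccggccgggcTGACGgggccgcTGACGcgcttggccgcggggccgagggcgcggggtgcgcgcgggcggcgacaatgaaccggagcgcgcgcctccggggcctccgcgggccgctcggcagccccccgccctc
Nr4a1 (chr15:101266596-101266845, plus strand): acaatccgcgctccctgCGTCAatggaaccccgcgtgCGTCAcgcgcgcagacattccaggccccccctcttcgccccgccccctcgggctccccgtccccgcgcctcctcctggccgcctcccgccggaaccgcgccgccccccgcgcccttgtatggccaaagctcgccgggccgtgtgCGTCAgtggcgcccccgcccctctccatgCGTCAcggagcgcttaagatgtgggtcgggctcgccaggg
Nr4a3 (chr4:48045055-48045304, plus strand): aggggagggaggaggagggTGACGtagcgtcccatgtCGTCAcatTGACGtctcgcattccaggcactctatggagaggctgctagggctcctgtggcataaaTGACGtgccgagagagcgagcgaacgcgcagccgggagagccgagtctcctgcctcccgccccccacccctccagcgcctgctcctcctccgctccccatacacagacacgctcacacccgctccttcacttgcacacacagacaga
Fos (chr12:85473640-85473889, plus strand): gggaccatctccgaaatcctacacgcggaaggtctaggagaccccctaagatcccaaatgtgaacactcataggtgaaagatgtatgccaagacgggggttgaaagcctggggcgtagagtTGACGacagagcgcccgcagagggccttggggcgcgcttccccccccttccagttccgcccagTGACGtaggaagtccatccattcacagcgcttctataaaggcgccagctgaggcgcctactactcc
Egr2 (chr10:67537316-67537565, plus strand): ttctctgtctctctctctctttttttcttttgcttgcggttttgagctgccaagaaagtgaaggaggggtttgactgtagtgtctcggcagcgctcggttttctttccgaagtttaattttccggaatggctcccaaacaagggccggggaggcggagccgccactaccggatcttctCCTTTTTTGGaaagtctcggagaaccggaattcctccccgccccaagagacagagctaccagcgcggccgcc

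Each of the 3 NR4A windows held 4 such cores, a number reached by 0.137% of the 32851 windows of this length in the table, while 17.8% held 1 or more. Fos held 2, Fosb and Junb 1 each, and Jun 0. Egr2 had 5 windows, of which the one shown held 0 cores and 1 CArG box, a motif in 1.47% of windows. Of the others, 3 held the CArG box and 2 cores each, and 1 held neither. Both strands were searched, and a TGACG inside TGACGTCA would have counted for both motifs. The full site TGACGTCA and the AP-1 site TGANTCA had 0 matches in the windows of the members. The EGR element GCGNGGGCG, in 4.7% of windows, had 1 match each in Nr4a2, Nr4a1 and Fosb. A match describes letters only and the arrays say nothing on binding.

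Nr4a2 (Nurr1) was the member with the widest difference after anti-PD1. Its log2 values had a lowest, median and highest of 9.06, 9.36 and 10.2 in 6 control tumors, 9.39, 10.38 and 10.68 in 7 HMB tumors, 9.66, 10.65 and 11.25 in 6 anti-PD1 tumors, and 9.19, 10.28 and 10.88 in 7 anti-PD1 + HMB tumors. The 6 anti-PD1 tumors all lay above 5 of the 6 control tumors and 4 of them lay above every control tumor, with replicate 4 of the control group the exception that overlapped. The anti-PD1 group mean was 1.11 ± 0.28 (SE) above the control mean on the log2 scale. With HMB in the diet of both groups the difference was 0.00 ± 0.26, and HMB alone stood 0.76 above control. Nr4a2 was above background in 2 tumors, both of them in the anti-PD1 group.

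Nr4a1 (Nur77), which reports recent antigen receptor signaling in T cells, ran from 8.51 to 9.62 in control tumors with a median of 8.74. In the HMB group it ran from 8.48 to 10.27 (median 9.56), in the anti-PD1 group from 8.71 to 10.55 (median 9.84) and in the anti-PD1 + HMB group from 8.17 to 10.54 (median 9.14). The groups overlapped, and 4 of 6 anti-PD1 tumors lay above every control tumor. Nr4a3 (Nor1) differed less between control and anti-PD1, with medians of 8.81 and 9.27, and its highest values were in the anti-PD1 + HMB group, where it ran from 8.44 to 10.42 with a median of 9.55. Nr4a1 and Nr4a3 were above background in 0 tumors.

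Egr2 is a zinc finger factor of T cell anergy, and also of macrophages and of myelinating Schwann cells. Its lowest, median and highest log2 values were 7.53, 8.11 and 9.29 in control tumors, 7.46, 8.72 and 9.13 with HMB, 8.81, 9.06 and 9.62 with anti-PD1, and 7.84, 8.84 and 9.53 with anti-PD1 + HMB. As with Nr4a2, every anti-PD1 tumor was above 5 of the 6 control tumors, and the spread within the anti-PD1 group (SD 0.31) was narrower than in the control group (SD 0.66). The anti-PD1 mean was 0.90 ± 0.29 (SE) above control, and the anti-PD1 + HMB mean 0.16 ± 0.27 above HMB. Egr2 was above background in 0 tumors.

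Egr1, the founding factor of its family, was above background in 26 of 26 tumors. It ran from 13.87 to 14.76 in control tumors and from 14.6 to 15.65 in anti-PD1 tumors, of which 5 of 6 lay above every control tumor. In the HMB group it ran from 14.13 to 15.81, and in the anti-PD1 + HMB group from 13.17 to 15.34, where 2 tumors fell below every control tumor. Egr3, a partner of Egr2 in T cells, was at the 28.8th percentile of the negative controls in the median tumor. Its probe sets disagreed, since the one used had means of 5.72 in control and 6.02 in anti-PD1 tumors, while another had 5.42 and 5.05. Both of these are named as unmapped. The third, which is not so named, had lower means. They were 2.93 in control, 3.60 in HMB, 3.20 in anti-PD1 and 3.28 in anti-PD1 + HMB tumors. All values of Egr3 given here are to be read with that limit.

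Of the AP-1 genes, Junb was above background in 20 tumors, Jun in 11, and Fos and Fosb in 0. Junb, a brake on JUN activity in several cell types, ran from 10.47 to 12.29 in control tumors (median 11.25), from 10.99 to 12.77 with HMB (median 12.17), from 11.53 to 12.68 with anti-PD1 (median 11.94) and from 10.71 to 12.0 with anti-PD1 + HMB (median 11.81). All 6 anti-PD1 tumors were above 5 of the 6 control tumors. Jun, the main DNA-binding partner in AP-1, had medians of 10.77, 10.58, 11.13 and 11.2 in the same order of groups, so that both anti-PD1-treated groups had higher medians than both others, with overlap.

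Fos had the widest spread of the members, with values from 5.29 to 8.01 in control tumors, 5.95 to 7.81 with HMB, 6.35 to 8.46 with anti-PD1 and 5.2 to 7.97 with anti-PD1 + HMB. The median tumor lay at the 45.1st percentile of the negative controls for Fos and the 30.9th for Fosb. Low values of Fos, Fosb and Egr3 were thus within the range of probe sets that should detect nothing, and their differences are to be read with that limit.

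**Figure D1:**
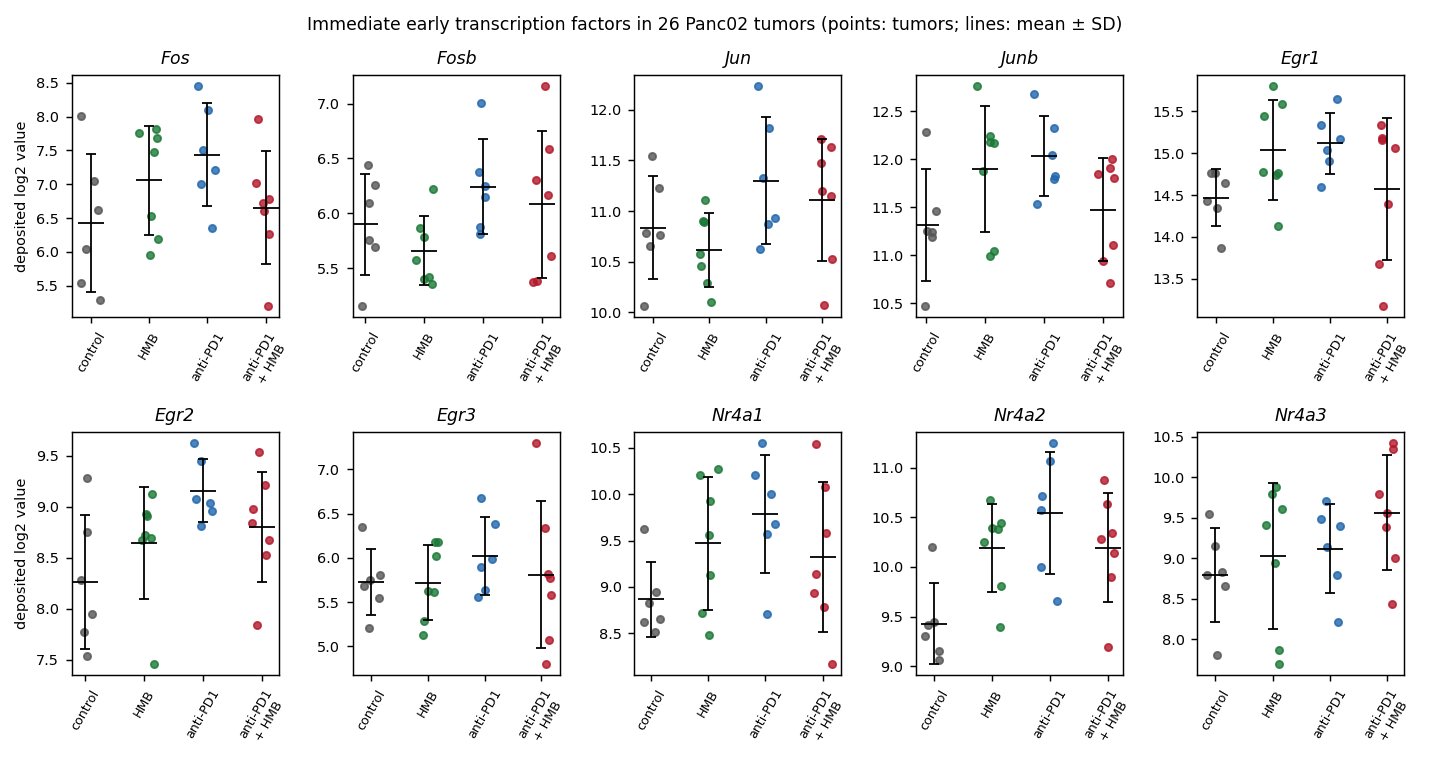
Log2 array value (y axis, own scale for each gene) of the 10 immediate early transcription factors in the control (n = 6), HMB (n = 7), anti-PD1 (n = 6) and anti-PD1 + HMB (n = 7) groups (x axis). Points are tumors and lines are the mean ± SD, and Nr4a2, Egr2 and Junb show all 6 anti-PD1 tumors above 5 of the 6 control tumors.

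Across the members, all 10 had a higher mean in anti-PD1 than in control tumors, with a median difference of 0.69 and a range from 0.30 (Egr3) to 1.11 (Nr4a2) on the log2 scale. Of all 19505 genes 49.2% were higher in this comparison, where the median difference was -0.01. The anti-PD1 response was used in choosing the list, so these counts carry no test. Between anti-PD1 + HMB and control all 10 were higher as well, with a median of 0.25, led by Nr4a3 (0.77 ± 0.37, SE) and Nr4a2 (0.76 ± 0.27), beside 46.9% of all genes. The median was 0.15 without replicate 3 of the anti-PD1 + HMB group, 0.46 without its replicate 6 and 0.45 without replicate 4 of the control group. The values of Junb, Egr1 and Egr3 fell to -0.01, -0.03 and -0.16 when 1 tumor was left out (replicate 2 of the control group, and replicates 5 and 7 of the anti-PD1 + HMB group), so that the count of 10 rests on single tumors. The median was 0.53 without the 3 tumors highest in skeletal muscle markers, 2 of which were anti-PD1 + HMB tumors.

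Among HMB-fed mice the picture differed by gene. Anti-PD1 + HMB tumors were higher than HMB tumors in 6 members and lower in 4, with a median of 0.05, while 48.4% of all genes were higher. Nr4a3 (0.54 ± 0.36, SE), Jun (0.49 ± 0.27) and Fosb (0.42 ± 0.25) were on the higher side, and Egr1 (-0.47 ± 0.30), Junb (-0.42 ± 0.29) and Fos (-0.41 ± 0.43) on the lower. The split rests on single tumors, since over left-out tumors Egr2 ran from -0.04 to 0.32, Egr3 from -0.16 to 0.26, Nr4a1 from -0.35 to 0.04 and Nr4a2 from -0.13 to 0.17. When both treated groups were set against both untreated ones, all 10 members were higher (47.9% of all genes were), from 0.09 for Egr1 to 0.56 ± 0.19 for Nr4a2, with Egr2 at 0.53 ± 0.20 and Jun at 0.48 ± 0.20 next. T cell markers were higher alongside, in 10 of 10 genes with a median of 1.17, while mast cell markers were lower in 6 of 6 (median -1.09) and neutrophil markers in 5 of 6 (median -0.29). Of the 6 neutrophil markers 5 were above background in 0 tumors, as were 3 of the 10 T cell markers. The part of these cells in the members' differences was not tested.

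The tested question was whether HMB in the diet went with other levels of these genes, over both treatment arms. No member passed the threshold. In limma's fit, 0 of 10 members had an unadjusted p under 0.05 or an adjusted p under 0.05, where 5.03% of all genes had the former and 0 the latter, and the permutation test within arms likewise gave 0. In sign, 6 members were higher and 4 lower (46.7% of all genes were higher). The member differences lay between -0.21 ± 0.20 (SE, Jun) and 0.34 ± 0.26 (Nr4a3), with a median of 0.01 against -0.01 over all genes. Nr4a2 stood at 0.21 ± 0.19 and Egr2 at 0.01 ± 0.20.

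Skeletal muscle markers moved with this comparison. All 13 were higher in HMB-fed tumors, by a median of 2.51. Of them 11 had an unadjusted p under 0.05, beside 5.03% of all genes, and 0 had an adjusted p under 0.05. Their mean deviation ran from -1.83 to -1.42 in control tumors, -1.7 to 7.09 with HMB, -1.87 to 1.48 with anti-PD1 and -2.02 to 6.41 with anti-PD1 + HMB, and Acta1, skeletal muscle actin, was above background in 5 tumors. Without the 3 tumors highest in these markers, 1 of 10 members had an unadjusted p under 0.05, Nr4a3, at 0.60 on the log2 scale with an adjusted p of 0.856 in limma's fit. The tumors left out, HMB replicate 5 and anti-PD1 + HMB replicates 4 and 6, were all HMB-fed. They were left out after the data were seen. The share of all genes in that fit is not given, and nothing is read from the count. Adipocyte markers were higher in 7 of 7 genes (median 1.09), B cell markers in 7 of 7 (median 0.85) and mast cell markers in 6 of 6 (median 0.74), with 0 at an unadjusted p under 0.05. The adipocyte and B cell differences rested on few tumors. In the order control, HMB, anti-PD1 and anti-PD1 + HMB, the mean deviation of B cell markers had medians of -0.644, -0.497, -0.53 and -0.533. Its highest values were -0.526, 3.42, 1.79 and 8.05. For adipocyte markers the medians were -0.921, -0.816, -1.03 and -0.64, and the highest values 0.233, 4.41, 3.41 and 6.16. Macrophage markers were lower in 6 of 9 (median -0.31), with 3 lower and 1 higher at an unadjusted p under 0.05 and 0 at an adjusted p under 0.05. The part of these cells in the members' values was not tested.

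Without anti-PD1, HMB tumors were higher than control tumors in 7 members and lower in 3, with a median of 0.48, beside 47.5% of all genes that were higher. At an unadjusted p under 0.05 there was 1 member, Nr4a2, beside 6.93% of all genes, and since the control tumors entered the choice nothing is read from that count. The mean of Nr4a2 was 10.19 ± 0.44 (SD, n = 7) in HMB tumors and 9.43 ± 0.41 (SD, n = 6) in control tumors, and 6 of 7 HMB tumors lay above 5 of 6 control tumors. The difference was 0.76 ± 0.27 (SE) and lay between 0.68 and 0.92 when each tumor was left out in turn.

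The other members on the higher side were Fos (0.64 ± 0.45, SE), Nr4a1 (0.60 ± 0.35), Junb (0.58 ± 0.30), Egr1 (0.57 ± 0.31), Egr2 (0.38 ± 0.28) and Nr4a3 (0.23 ± 0.37). Fosb and Jun had values of -0.24 ± 0.26 and -0.22 ± 0.28, and Egr3 of 0.00 ± 0.30, whose sign depended on the probe set. Replicate 4 of the control group, the control tumor with the highest Fos, Junb, Egr2, Nr4a1 and Nr4a2, carried weight here. Without it 5 members had an unadjusted p under 0.05, and without replicate 3 or replicate 4 of the HMB group 4 and 3 did. The share of all genes in these fits is not given, and nothing is read from these counts. The same control tumors were part of the anti-PD1 comparison from which the members were proposed, and low values in them would enter both.

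Under anti-PD1 most differences had the opposite sign, again as a description. Anti-PD1 + HMB tumors were lower than anti-PD1 tumors in 9 members and higher in 1, with a median of -0.35, beside 48% of all genes that were higher. At an unadjusted p under 0.05 there were 0 members, beside 4.18% of all genes, from which nothing is read because the anti-PD1 tumors entered the choice. Junb was lowest relative to its spread, at -0.56 ± 0.30 (SE), and all 7 anti-PD1 + HMB tumors were below the anti-PD1 mean although the groups overlapped. Fos stood at -0.78 ± 0.45, Egr1 at -0.55 ± 0.31, Nr4a1 at -0.47 ± 0.35, Egr2 at -0.36 ± 0.28 and Nr4a2 at -0.35 ± 0.27. Nr4a3 was the 1 member on the other side, at 0.44 ± 0.37.

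This comparison also depended on single tumors. When only these 2 groups were fitted, Junb had an unadjusted p under 0.05, as did 1 member after leaving out replicate 2, 3 or 5 of the anti-PD1 + HMB group or replicate 2 or 6 of the anti-PD1 group. Without the tumors highest in muscle markers, the 1 member was Nr4a3, higher by 0.78. No share of all genes is given for these fits, and nothing is read from the counts. Epithelial tumor markers, a list that also holds the proliferation gene Mki67, differed in sign as well. In HMB against control tumors 8 of 8 were higher (median 0.31), 3 at an unadjusted p under 0.05 beside 6.93% of all genes. Under anti-PD1 7 of 8 were lower (median -0.54), 2 at an unadjusted p under 0.05 beside 4.18% of all genes. At an adjusted p under 0.05 there were 0 in either comparison. The mean deviation of this list averaged -0.548 in control, 0.456 in HMB, 0.395 in anti-PD1 and -0.324 in anti-PD1 + HMB tumors. Of its genes, Krt19 and Epcam were above background in 1 tumor each and Cldn4 in 0. The change of sign was not particular to this list. Keratinocyte markers were higher in 5 of 7 genes (median 0.52) in HMB against control tumors. Under anti-PD1 they were lower in 6 of 7 (median -0.84), and 5 of the 7 were above background in 0 tumors. Fibroblast markers were higher in 7 of 9 (median 1.03) and lower in 5 of 9 (median -0.34). T cell markers were higher in 10 of 10 genes under anti-PD1 (median 0.56). Their mean deviation ran from -0.382 to 1.37 (median 0.0814) in anti-PD1 tumors. In anti-PD1 + HMB tumors it ran from -0.621 to 3.71 (median 0.83), so the groups overlapped. Of these 10 markers 3 were above background in 0 tumors. The part of these cells was not tested.

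**Figure D2:**
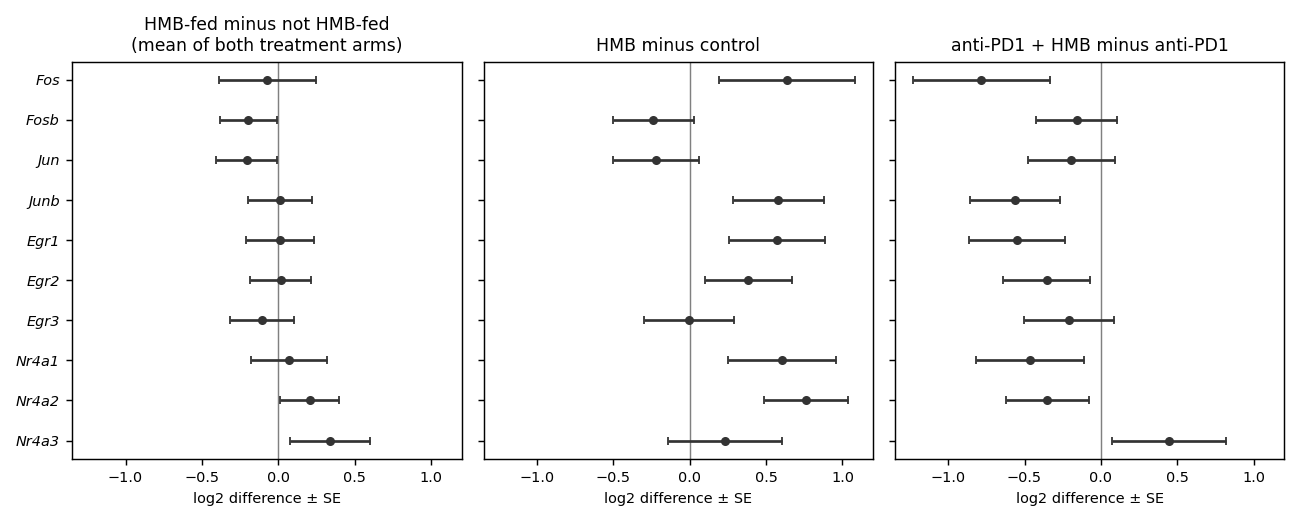
Log2 difference ± SE (x axis) of each member (y axis) for HMB-fed minus other tumors over both treatment arms (left), HMB minus control (middle) and anti-PD1 + HMB minus anti-PD1 (right), from limma's fit of 26 tumors. Fos, Junb, Egr1, Egr2, Nr4a1 and Nr4a2, lie right of 0 in the middle panel and left of 0 in the right one, and lie between -0.07 (Fos) and 0.21 (Nr4a2) on the left.

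The HMB difference under anti-PD1 minus that without it came to -1.42 ± 0.63 (SE) for Fos, -1.14 ± 0.42 for Junb, -1.12 ± 0.44 for Egr1, -1.11 ± 0.38 for Nr4a2, -1.07 ± 0.50 for Nr4a1 and -0.74 ± 0.40 for Egr2. For Fosb, Jun, Egr3 and Nr4a3 it lay between -0.21 and 0.21. It was not tested, because the low control and high anti-PD1 values that chose the members enter it. Read by group, these 6 genes were lowest in control tumors, highest in anti-PD1 tumors and in between in both HMB-fed groups by their means, while the tumors of neighboring groups overlapped in each gene.

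The mean deviation of the 10 members in a tumor summarizes this. It averaged -0.34 ± 0.38 (SD, n = 6) in control, -0.01 ± 0.41 (n = 7) in HMB, 0.33 ± 0.16 (n = 6) in anti-PD1 and 0.02 ± 0.49 (n = 7) in anti-PD1 + HMB tumors. The anti-PD1 tumors were all between 0.14 and 0.51. Each of the other groups held tumors at both ends, with -0.77 and 0.30 as the extremes of control, -0.74 and 0.51 of HMB, and -0.89 and 0.63 of anti-PD1 + HMB. Replicate 3 of the HMB group had 0 of 10 members above their mean and replicate 7 had 10 of 10. In the anti-PD1 + HMB group replicate 6 had 1 and replicate 3 had 9.

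**Figure D3:**
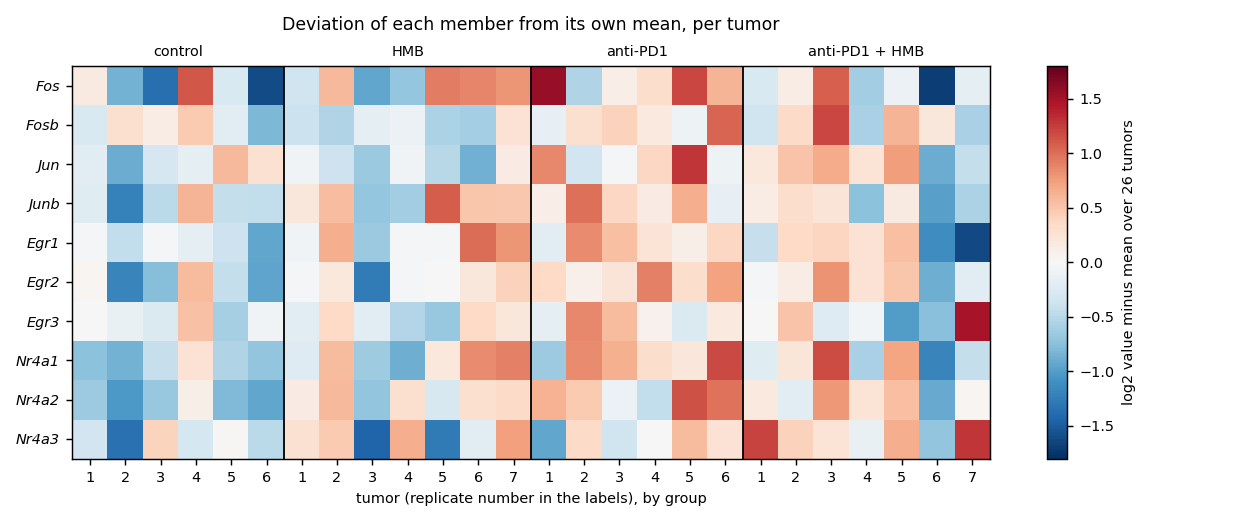
Log2 value of each member (rows) minus its mean over 26 tumors, for every tumor (columns, replicate numbers of the labels, by group). Whole columns are blue or red, such as replicate 3 (0 of 10 members above their mean) and replicate 7 (10 of 10) of the HMB group.

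Members thus tended to vary together between tumors of the same group, least by median r in the anti-PD1 group, a difference that was not tested. Within the anti-PD1 group the median r over the 45 pairs was 0.0596, with 26 pairs positive. No such count was made for pairs of other genes. After each group's mean was removed, 41 of 45 pairs of members had a positive Pearson r over the 26 tumors, with a median of 0.34. In 14 pairs, all positive, the two-sided permutation p within groups was under 0.05 after adjustment over the 45 pairs. Egr2 and Fos, both above background in 0 tumors, had the highest r, 0.755, with an adjusted permutation p of 0.0009 and Spearman's rho of 0.69, and r was 0.619 without the 2 tumors farthest from the median of Fos. Egr1 and Nr4a1 followed with r of 0.713 (adjusted permutation p 0.00459, rho 0.746, r 0.756 without 2 tumors). Junb and Nr4a1 had r of 0.671 (adjusted permutation p 0.00459, rho 0.696, r 0.602).

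Nr4a2 and Egr2 also went together, with r of 0.647 (adjusted permutation p 0.00459, rho 0.577, r 0.445 without 2 tumors). Nr4a1 had the most partners, 6 of 9, and Egr2 had 5. Jun and Egr3 had 0. Between the 3 NR4A genes r was 0.523 for Nr4a2 with either of the others, which passed with Pearson's r but not with Spearman's rho (adjusted permutation p of 0.0905 for each) or without the 2 farthest tumors (r 0.356 and adjusted permutation p 0.287 with Nr4a1, r 0.488 and adjusted permutation p 0.135 with Nr4a3). It was 0.342 for Nr4a1 with Nr4a3, which did not pass. With Spearman's rho 8 pairs passed in place of 14, and without the 2 farthest tumors 7 did. Of these 7, a single pair was negative, Jun and Egr3, with r of -0.554.

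**Figure D4:**
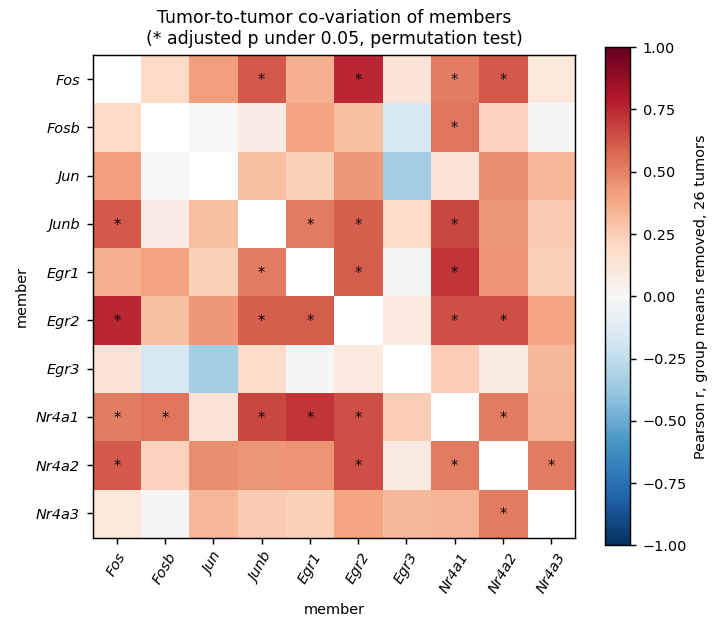
Pearson r (color, from -1 to 1) of each pair of members (rows and columns) over 26 tumors with the 4 group means removed. Asterisks mark the 14 of 45 pairs with an adjusted permutation p under 0.05, which include 6 of the 9 pairs of Nr4a1 and 0 of those of Jun and Egr3.

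The wider immediate early program was followed in other lists. Of 16 other immediate early transcription factors, 11 were higher in HMB-fed tumors with a median of 0.10, beside 46.7% of all genes. At an unadjusted p under 0.05 there were 0, beside 5.03% of all genes. Ier5, a regulator of the heat shock response, had 0.32 ± 0.16 (SE), Klf4, a pluripotency and barrier factor, -0.34 ± 0.23, Atf3, a stress-induced CREB family factor, -0.27 ± 0.24, and Egr4 0.20 ± 0.16. In HMB against control tumors 3 of the 16 were higher at an unadjusted p under 0.05, beside 6.93% of all genes. These 3, named after their values were seen, were Fosl2 (0.68), Jund (0.59) and Ier2 (0.61), and the smallest adjusted p was 0.686 in limma's fit. Under anti-PD1 0 of the 16 had an unadjusted p under 0.05, beside 4.18% of all genes. The control and anti-PD1 tumors entered the choice of the members, and several members vary with this list. Nothing is therefore read from these counts. After anti-PD1, given as a description, 11 of the 16 were higher with a median of 0.18, beside 47.9% of all genes, and the widest differences were those of Fosl1, a FOS family member, at 0.65 and Csrnp1 at 0.63.

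Of the 29 immediate early effectors and feedback inhibitors, 14 were higher and 15 lower in HMB-fed tumors, where 46.7% of all genes were higher. Plk3, a stress-responsive kinase, was the only one with an unadjusted p under 0.05, at -0.46 ± 0.17 (SE) with an adjusted p of 0.911 in limma's fit. Since 5.03% of all genes had an unadjusted p under 0.05, 1 of 29 is no more than their share. Socs3, an inhibitor of cytokine signaling, had -0.73 ± 0.36, Ptgs2, the inducible cyclooxygenase, -0.40 ± 0.27, and Nab2, a corepressor of EGR proteins, -0.31 ± 0.20. After anti-PD1 20 of the 29 were higher, again beside 47.9% of all genes, with Tnfaip3, an inhibitor of NF-κB signaling, at 0.80 and Dusp2, a MAP kinase phosphatase of activated lymphocytes, at 0.68.

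Of the 15 upstream regulators, 12 were higher in HMB-fed tumors with a median of 0.05, beside 46.7% of all genes. At an unadjusted p under 0.05 there were 0, beside 5.03% of all genes. Mef2c had 0.65 ± 0.32 (SE), and the SRF cofactors Elk3 and Elk4 had -0.21 ± 0.12 and 0.14 ± 0.09. Srf itself had -0.18 ± 0.14 with HMB and 0.28 with anti-PD1, and Crtc3, a CREB coactivator, -0.29 with anti-PD1.

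Among 14 genes linked to NR4A factors or EGR2 in T cells, 3 were higher and 11 lower in HMB-fed tumors with a median of -0.06. Of all genes 46.7% were higher. At an unadjusted p under 0.05 there were 0, beside 5.03% of all genes. Ctla4, an inhibitory receptor, had 0.67 ± 0.35 (SE), with 1.76 ± 0.50 in the anti-PD1 arm and -0.43 ± 0.50 in the other, between which no test was made. Lag3, another inhibitory receptor, had -0.28 ± 0.29, Cblb, a ubiquitin ligase of anergy, 0.26 ± 0.26, and Ikzf2 0.20 ± 0.20. At an unadjusted p under 0.05, 2 were lower in HMB against control tumors (6.93% of all genes passed), Havcr2 (-0.77) and Dgkz (-0.38), named after their values were seen, and 1, Ctla4, was higher under anti-PD1 (4.18% passed). Nothing is read from these counts, as the control and anti-PD1 tumors entered the choice of the members. After anti-PD1 13 of the 14 were higher, beside 47.9% of all genes, led by Tox, a factor of T cell exhaustion, at 1.90 and Pdcd1, which encodes PD-1, at 1.55.

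Heat shock genes encode chaperones that are induced by heat and other stress. Of the 9 measured, 4 (Hspa1a, Hspa1b, Hspb1 and Bag3) were above background in 0 tumors. In HMB-fed tumors 5 of 9 were higher and 4 lower, with a median of 0.00, where 46.7% of all genes were higher. At an unadjusted p under 0.05 there was 1 of 9, beside 5.03% of all genes. Hspb1, a small heat shock protein that is also abundant in muscle, had an unadjusted p under 0.05 at 1.68 ± 0.58 (SE), with an adjusted p of 0.911 in limma's fit. Dnajb1 had -0.15 ± 0.14, Hsp90aa1 0.08 ± 0.12 and Hspa1a -0.16 ± 0.37. After anti-PD1 4 of 9 were higher with a median of -0.01, beside 47.9% of all genes, Hspa1a standing at 0.34 and Hsph1 at -0.54.

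From tumor to tumor, several members followed the other immediate early transcription factors. Of 170 relations between a member and the mean of a list, 7 had an adjusted permutation p under 0.05. In 5 of them the list was the other immediate early transcription factors, with r of 0.71 for Junb, 0.671 for Nr4a1, 0.665 for Nr4a2, 0.638 for Egr2 and 0.636 for Fos (Spearman's rho from 0.551 to 0.791). Nr4a1 also followed the effectors and feedback inhibitors (r 0.662, rho 0.586). Egr3 ran against the epithelial tumor markers (r -0.651, rho -0.536). Egr3 was above background in 0 tumors and its probe sets disagreed. Of the 8 epithelial tumor markers 3 were above background in every tumor. With Spearman's rho 1 relation passed, that of Junb, and without the 2 farthest tumors 0 did, where r for the same 7 lay between -0.55 and 0.619.

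No relation passed for T cell markers (median r 0.22 over the members, 8 of 10 positive), macrophage markers (0.14, 7 positive), fibroblast markers (-0.44, 0 positive), skeletal muscle markers (-0.17, 0 positive) or heat shock genes (0.08, 6 positive). The heat shock values of r lay between -0.20 and 0.14. For Nr4a3 the muscle markers had r of -0.556 with an adjusted permutation p of 0.16, and rho of -0.444.

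**Figure D5:**
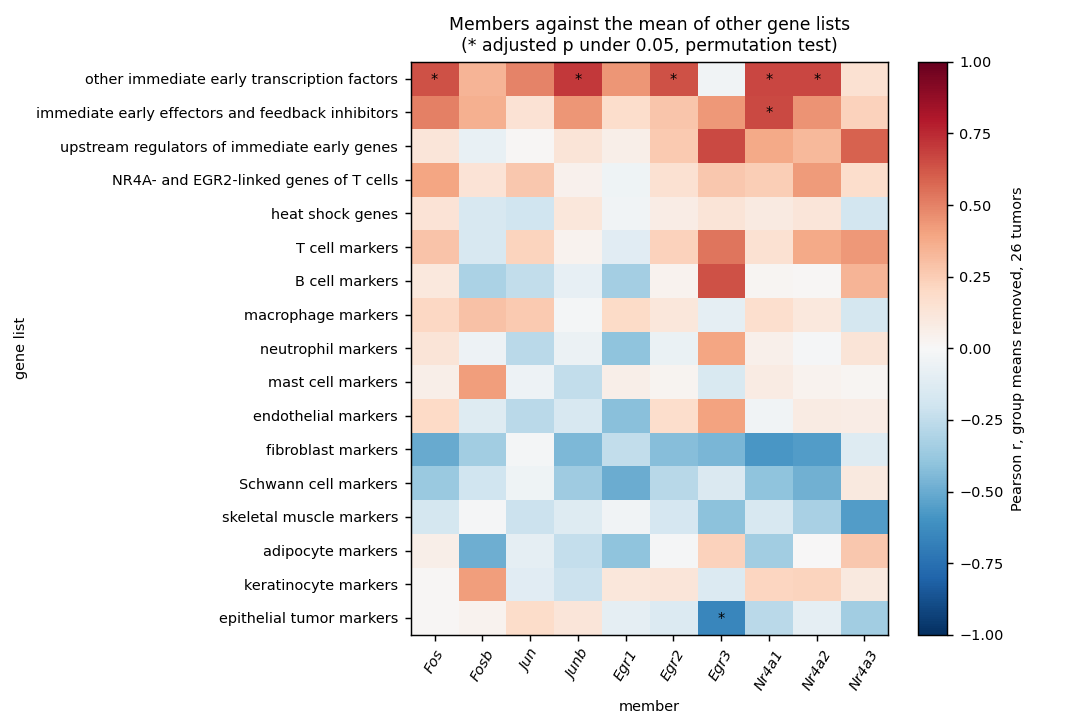
Pearson r (color, from -1 to 1) of each member (columns) with the mean of each gene list (rows) over 26 tumors with the 4 group means removed. Asterisks mark the 7 of 170 relations with an adjusted permutation p under 0.05, of which 5 are in the row of the other immediate early transcription factors.

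The genes most like Nr4a2 and Egr2 were sought among all 19505 by Pearson r of the group-centered values over 26 tumors, as a description. For Nr4a2 they were Bcl3, an NF-κB regulator (0.751), Gm5069 (0.745), Speer1 (0.745), Lst1, a leukocyte transcript (0.731), and Tmem26 (0.723), and all 5 were above background in 0 tumors. Egr2 was the nearest other member at rank 42. For Egr2 they were Dynlrb1, a dynein light chain (0.822), Lst1 (0.802), Mrpl52, a mitochondrial ribosomal protein (0.756), Fos (0.755) and Map7d1 (0.741). Lst1 was on both lists, and Fos was the only member on either.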

How the data were processed

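RNA of 26 whole tumors was measured on Clariom S arrays, 1 array per tumor, and groups were taken from the sample titles, since group sizes in the series' design text differ. The deposited values are on a log scale, 1 for every probe set of an array, and were taken as log2. How the authors summarized and normalized them, the log base and the array's genome build are not given in the sources used, so a shift made by that processing cannot be separated from the values. No column fell outside the series. Of 28846 probe sets, 19572 had 1 gene symbol, which gave 19505 genes after the probe set with the highest mean was kept for 55 genes. No low value was removed, and all 10 members also passed the alternative filter that drops the lowest 0.25 of genes (14629 left).

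Differences came from limma 3.58.1 in R 4.3.3, fitted with 1 mean per group over 26 tumors (22 residual degrees of freedom), with Benjamini-Hochberg adjustment over all genes and a threshold of 0.05. Exact permutation tests were two-sided, and 100000 permutations within groups or arms were used for correlations and for the comparison over both arms, which allow a smallest p of 1e-05. Steps were tested on simulated data. Python 3.11.15, numpy 2.4.6, scipy 1.17.1 and pandas 2.3.3 were used.

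Members and gene lists were chosen with earlier results of these data known. Named genes were all members, in each pathway list the 4 genes with the smallest p for HMB-fed tumors and the 2 with the widest anti-PD1 difference, and the 5 genes most like Nr4a2 and Egr2. Pathway lists had 16, 29, 15, 14 and 9 measured genes. Alternatives were quantile normalization, the filter, averaging of probe sets, a trended and robust variance, array weights, fitting the compared groups alone, a block for the replicate number, the methods' t-test, permutation tests, Spearman's rho and leaving out tumors. Leaving out the tumors highest in muscle markers was added after seeing the data.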

Additional observations from a re-analysis of the deposited data

Results flagged for a closer look

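Each member was looked at in each group for a tumor far from the others, and 2 of 40 sets held one, where chance alone flags about 1 in 20. Egr2 in replicate 3 of the HMB group, the lowest of 7 tumors, had a log2 value of 7.46 against 8.68 for its nearest neighbor, a gap of 0.729 of the group's range. Nr4a2 in replicate 4 of the control group, the highest of 6 tumors, had 10.2 against 9.44, a gap of 0.668 of the range.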

How the results depend on the processing

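Of the HMB-fed against other comparison, 0 members at an unadjusted p under 0.05 became 1 without the 3 tumors highest in muscle markers (HMB replicate 5, anti-PD1 + HMB replicates 4 and 6) and stayed 0 under all other settings, each left-out tumor included. HMB against control went from 1 to 4 with array weights and to 2 with only the groups compared, and from 1 to 5 over left-out tumors. Anti-PD1 + HMB against anti-PD1 went from 0 to 1 with only the groups compared, to 1 without the muscle-high tumors, and from 0 to 1 over left-out tumors. For none of these comparisons is the share of all genes given under the other settings, and nothing is read from the changed counts. Co-variation passed in 8 pairs with Spearman's rho and 7 without the 2 farthest tumors, and with lists in 1 and 0 relations, in place of 14 and 7, and quantile normalization left both counts as they were. The sign of Egr3 turned with the mean of its probe sets (0.12 for HMB-fed, 0.16 for HMB against control, 0.092 under anti-PD1), with array weights (0.10, HMB against control) and without the muscle-high tumors (0.020 and 0.094). Fos turned to 0.048 without those tumors in the HMB-fed comparison. The cause of these changes was not tested. Over left-out tumors the HMB-fed values near 0 also changed sign, from -0.19 to 0.085 for Fos, -0.076 to 0.11 for Junb, -0.055 to 0.13 for Egr1, -0.059 to 0.12 for Egr2 and -0.039 to 0.16 for Nr4a1, as did Egr3 in HMB against control, from -0.11 to 0.12. The median of anti-PD1 + HMB minus HMB (0.05) ran from -0.09 to 0.19 over left-out tumors.

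Replicate numbers showed no clear pairing of the tumors. Deviations were correlated above 0.1 in 12 of 37 same-numbered pairs (median r -0.01) and in 53 of 216 other pairs (median 0.00). The difference was not tested, so a pairing by number is not excluded. With the replicate block the counts of members stayed at 0, 1 and 0, Nr4a2 in HMB against control was 0.75, and Egr2 in the HMB-fed comparison turned to -0.0028. Most members were below the 95th percentile of the negative controls, which limits what their differences can show.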

Other observations

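Within single groups the members varied together to different degrees. Over the 45 pairs the median Pearson r was 0.496 in control tumors (40 pairs positive), 0.413 with HMB (33 positive), 0.547 with anti-PD1 + HMB (36 positive) and 0.0596 with anti-PD1 (26 positive), with 6 or 7 tumors per group. Of these 180 relations 0 had an adjusted p under 0.05 in the exact permutation test. In anti-PD1 tumors Fos ran against Egr1, with r of -0.957, rho of -0.943, an exact permutation p of 0.00833 and an adjusted p of 0.115, and r of -0.799 without 2 tumors. In the control, HMB and anti-PD1 + HMB groups r for the same pair was 0.533, 0.778 and 0.498. The difference between groups was not tested.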
